A study of Mus musculus with 96 samples.

Results

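The genes described here encode the phagocyte NADPH oxidase and a group of redox enzymes and regulators: Ncf1, Ncf4, Cyba, Cybb, Rac2, Txnip, Gclm, Gclc and Hmox1. They were chosen by name, with earlier results of these data known. All 9 were found by their Ensembl identifiers among the 54532 gene models counted. They were measured in microglia, the resident macrophages of the brain, of wild-type (WT) mice. The cells were sorted for CD11b and Fcrls and against Ly6C, and each library was made from 1000 lysed cells with the Smart-seq2 protocol. At 6 h there were 7 old surgery, 8 old control, 4 young surgery and 4 young control animals. At 48 h there were 9 old surgery, 8 old control, 4 young surgery and 4 young control animals. Old mice were 20 to 22 months of age and young mice 3 to 5 months, and the operation was abdominal surgery. The labels do not describe what the control mice went through. Hemisphere and hippocampus were sorted from the same animals, which gave 96 libraries in 16 groups from 48 animals.

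The phagocyte oxidase moves electrons from NADPH across a membrane to oxygen and so makes superoxide. Cybb (gp91phox, the catalytic subunit) and Cyba (p22phox, its partner) form the membrane part. In a resting cell Ncf1 (p47phox, the organizer) and Ncf4 (p40phox) wait in the cytosol, and on stimulation they move to the membrane together with the small GTPase Rac2 or Rac1. In microglia the oxidase is known for the oxidative burst of activated cells. The other members act on the oxidants or on redox balance. Gclc and Gclm are the catalytic and the modifier subunit of glutamate-cysteine ligase, which catalyses the first step of glutathione synthesis. Txnip binds and inhibits thioredoxin and limits glucose uptake, and Hmox1 is the inducible heme oxygenase.

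A gene is called here when edgeR's quasi-likelihood F-test, adjusted over all genes tested by the Benjamini-Hochberg (BH) method, gave a value below 0.05. In 28 comparisons the 9 genes were tested 252 times, since each of them passed the low-count filter in every fit, and 4 tests were called. Ncf1 was higher after surgery in old hemisphere at 6 h. The surgery effect on Txnip in old hemisphere was lower at 48 h than at 6 h. Gclm was lower in old than in young control hippocampus at 48 h, and its surgery effect in young hemisphere was lower at 48 h than at 6 h, but both Gclm results rested on a few libraries with very high values. The share of all genes called was small throughout. For surgery at 6 h it was 0.337% in old and 0.0627% in young hemisphere and 0.0876% in old and 0.0365% in young hippocampus, and at 48 h it was 0% in all 4 settings. For old against young controls it was 0.0784% and 0.0584% at 6 h and 0.0898% and 0.0834% at 48 h, in hemisphere and hippocampus. For old against young animals after surgery it was 0.00784% and 0% at 6 h and 0.114% and 0.0834% at 48 h. The difference in surgery effect between times reached 0.17% in old and 0.00707% in young hemisphere, and it was 0% in both hippocampus comparisons, as were the differences in surgery effect between ages and between regions. In the 14 comparisons with no gene called by edgeR, 393 to 1272 genes had an unadjusted p below 0.05, and DESeq2 called 0 to 27. For the 9 members 43 of the 252 tests (17.1%) had an unadjusted p below 0.05, where all genes had 2.92% to 11.3% per comparison. Many of these tests share libraries, and some of the 43 are Gclm tests in groups with a few very high libraries. The members were chosen with earlier results of these data known, so these shares are not a test of the members as a set.

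The 250 bases before the start of Ncf1, Txnip and Gclm are shown because these are the members with a called difference. They are RefSeq sequences on GRCm38.p6, printed 5′ to 3′ on the strand of the gene. Of the 9 members, 5 had an entry in that table (Cyba, Cybb, Gclm, Ncf1 and Txnip). Capitals mark the letters of the motifs searched, on either strand. The Ncf1 sequence is chr5:134229626-134229875 (minus strand), the Txnip sequence is chr3:96557707-96557956 (plus strand) and the Gclm sequence is chr3:122245307-122245556 (plus strand).
Ncf1 promoter: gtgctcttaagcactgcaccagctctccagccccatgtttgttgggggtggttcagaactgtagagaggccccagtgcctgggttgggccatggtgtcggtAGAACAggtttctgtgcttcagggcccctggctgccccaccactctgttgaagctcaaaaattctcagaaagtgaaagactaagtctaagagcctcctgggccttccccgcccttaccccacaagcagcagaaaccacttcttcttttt
Txnip promoter: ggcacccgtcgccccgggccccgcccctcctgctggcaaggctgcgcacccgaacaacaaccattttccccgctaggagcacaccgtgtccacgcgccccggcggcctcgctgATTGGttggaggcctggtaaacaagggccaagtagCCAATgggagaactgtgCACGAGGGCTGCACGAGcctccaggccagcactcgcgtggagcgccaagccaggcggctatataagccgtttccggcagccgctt
Gclm promoter: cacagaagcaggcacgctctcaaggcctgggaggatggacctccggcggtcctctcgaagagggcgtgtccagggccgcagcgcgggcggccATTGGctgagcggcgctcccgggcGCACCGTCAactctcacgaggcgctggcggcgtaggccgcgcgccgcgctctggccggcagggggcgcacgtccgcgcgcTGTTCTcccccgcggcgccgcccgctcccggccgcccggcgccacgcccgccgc

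The Ncf1 sequence held AGAACA, one arm of the palindrome bound by the glucocorticoid receptor, from -149 to -144 relative to the gene's start. Of 32851 mouse promoter windows of this length, 16.1% held that motif on one strand or the other. The Txnip sequence held the CCAAT box on the minus strand from -137 to -133 and on the plus strand from -102 to -98. It also held the carbohydrate response element, CACGAG in 2 copies 5 bases apart, from -85 to -69. These letters were written down from knowledge of the Txnip element itself, so their presence in 1 of 32851 windows is no finding. The Gclm sequence held, all on the minus strand, CCAAT from -158 to -154, the core of the antioxidant response element TGACNNNGC from -134 to -126 and AGAACA from -54 to -49. CCAAT was in 33.8% of all windows and TGACNNNGC in 10.2%. The other motifs searched were the full glucocorticoid palindrome, AGAACA and then TGTTCT after 3 bases (0.00913% of windows; it contains the single arm), GAGGAA of PU.1 (23.3%) and the E box CACGTG (6.02%), and none of them was in the 5 promoters. A match here describes letters, not a binding site.

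Levels between genes are compared as group mean CPM per kb of exon, where CPM is the count scaled to a library total of 1000000. Cyba stood highest, at 72.4 to 88.8 CPM per kb over the 16 groups. Txnip followed with a median over groups of 33.3 CPM per kb, then Ncf1 with 26.9, Rac2 with 14.7 and Ncf4 with 9.50. Hmox1 had a median of 3.84 CPM per kb, Gclc 1.11 and Gclm 0.715. Cybb was the lowest, at 0.238 to 1.77 CPM per kb, although it encodes the catalytic subunit. In every group Cyba exceeded Cybb on this scale, by 48.2 to 304 times. Rac1, the other GTPase of the oxidase and not a member, had a median of 19.4 CPM per kb. No member was at 0 in any library, but Cybb rested on group means of only 3.75 to 25.9 counts per library and Gclc on 8.50 to 15.5.

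**Figure D1:**
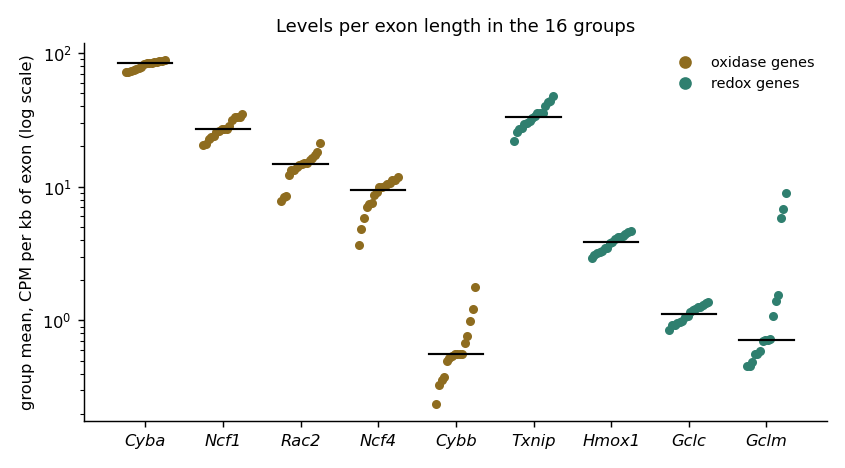
Group mean levels of the 9 genes in CPM per kb of exon (log scale), one point for each of the 16 groups, sorted by level, with the median over groups as a bar. Cyba lies at 72.4 to 88.8 CPM per kb and Cybb at 0.238 to 1.77, and Gclm has a few groups far above its median.

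The members also differed in how much they varied between animals of one group. On the scale of log2(CPM + 0.5), the SD within groups was 0.23 for Cyba, 0.27 for Txnip and 0.32 for Ncf1, against a median of 0.54 over 11341 genes. It was 0.56 for Hmox1, 0.59 for Gclc, 0.71 for Ncf4, 0.83 for Rac2, 0.87 for Cybb and 1.18 for Gclm. The steadiest members are thus the ones with the highest counts. For each gene it was also counted in how many of the 48 animals both regions lay on the same side of their group means. The count ran from 23 animals (Ncf4, Cybb and Gclm) to 31 (Cyba and Hmox1), and the median gene had 25.

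Some facts of the whole series bear on these values. Library totals ran from 1874168 to 3778939 estimated counts, and the 15 largest gene models together held 53.05% to 81.2% of each total. In 6 libraries, all at 6 h, few values of 1 occurred beside values of 2 and 3. In hippocampus they were young control replicates 1 and 4 and old surgery replicates 5 and 6. In hemisphere they were old surgery replicate 6 and old control replicate 7. The 10 microglia markers, among them P2ry12, Tmem119 and Fcrls, summed to 3703 to 11474 CPM per library. The 12 neutrophil markers summed to 55.6 to 322 CPM, the 9 monocyte markers to 13.9 to 47.7 CPM and the 9 markers of border-associated macrophages to 91.4 to 587 CPM. In bulk libraries of sorted cells, fewer cells of a type and less RNA per cell cannot be told apart.

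Ncf1 (chr5:134220053-134229625, minus strand, mm10) encodes the cytosolic organizer of the oxidase. In old hemisphere at 6 h its lowest, median and highest values were 91.1, 133 and 149 CPM after surgery and 54.5, 75.6 and 97.9 CPM in controls. The single surgery library below the highest control was replicate 6, and the other 6 of 7 lay above every control. Mean levels were 128 ± 18.7 CPM after surgery and 76.9 ± 17.2 CPM in controls (SD, n = 7 and 8), a log2 fold change of 0.72 ± 0.15 (SE; edgeR BH 0.0207). Without the 6 libraries that held few values of 1, it was 0.74 (edgeR BH 0.0109). In this comparison 0.337% of 12760 genes were called, 33 higher and 10 lower, and 1 of the 9 members was among them. The median fold change (log2) of the 9 members was 0.42, with 6 above 0, and that of all genes tested was -0.02. The members include Ncf1 and were chosen with earlier results of these data known, so these medians are not a test of them as a set.

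The other 6 h comparisons gave Ncf1 estimates of the same sign that were not called. In young hemisphere the values were 140, 127, 93.4 and 126 CPM after surgery and 93.8, 90.6, 75.1 and 90.4 CPM in controls, so that 3 of 4 surgery libraries lay above every control (log2 fold change 0.47 ± 0.20, SE; edgeR BH 1). In old hippocampus the lowest, median and highest values were 94.97, 123 and 157 CPM after surgery and 63.9, 80.8 and 121 CPM in controls, with 4 of 7 above every control (0.48 ± 0.16; edgeR BH 0.368). In young hippocampus they were 152, 124, 93.6 and 95.7 CPM after surgery and 57.4, 92.4, 70.4 and 78.3 CPM in controls. The groups did not overlap there, as for 2.3% of the genes tested, and the fold change (log2) was 0.66 ± 0.22 (SE; edgeR BH 0.454). Young control hippocampus replicates 1 and 4 were among the 6 libraries that held few values of 1. Without those 6 libraries, the fold change (log2) was 0.52 in young hippocampus (edgeR BH 0.897) and 0.56 in old hippocampus (edgeR BH 0.324). The surgery effect in old animals minus that in young animals at 6 h was 0.25 in hemisphere and -0.18 in hippocampus (log2), and neither difference was called.

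At 48 h the surgery and control libraries overlapped in every setting. Ncf1 averaged 94.0 ± 15.5 CPM after surgery and 82.9 ± 28.2 CPM in controls in old hemisphere (SD, n = 9 and 8), and 98.7 ± 15.6 and 98.4 ± 14.03 CPM in old hippocampus (SD, n = 9 and 8). In young hemisphere it averaged 98.6 ± 33.1 CPM after surgery and 121 ± 17.5 CPM in controls, and in young hippocampus 104 ± 23.4 and 96.3 ± 20.9 CPM (SD, n = 4 each). The 48 h fold changes (log2) were 0.18, -0.00, -0.30 and 0.12 in that order. The surgery effect at 48 h minus that at 6 h was -0.54 ± 0.24 in old hemisphere, -0.47 ± 0.20 in old hippocampus, -0.76 ± 0.34 in young hemisphere and -0.56 in young hippocampus (log2, SE), and edgeR called none of these differences. Over the 16 groups Ncf1 ran from 128 CPM in old surgery hemisphere at 6 h down to 74.6 CPM in young control hippocampus at 6 h. No neighbours in that order were further apart than the larger SD of the pair.

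**Figure D2:**
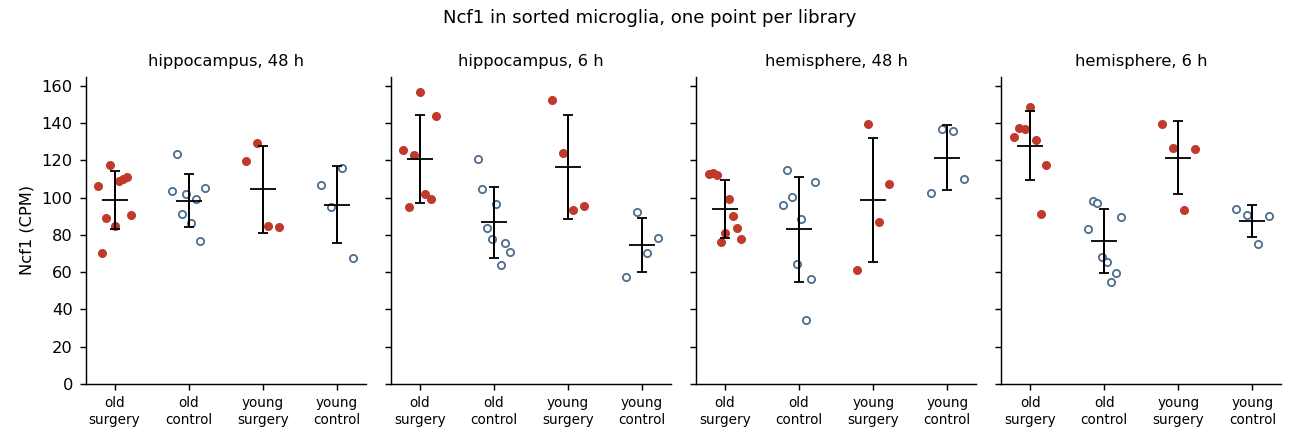
Ncf1 in CPM, one point per library, in the 4 settings of region and time; filled red points are surgery, open points control, and bars show mean ± SD. At 6 h in old hemisphere 6 of 7 surgery libraries lie above every control, and at 48 h surgery and control overlap in all 4 settings.

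Values of other cells' markers stood beside the Ncf1 result as follows. The neutrophil markers in old hemisphere at 6 h summed to 63.4 to 258 CPM after surgery and 106.2 to 219 CPM in controls. Csf3r made up most of this sum, at 91.7 CPM after surgery and 125 CPM in controls on average, and Ly6g was at 0 in all 7 surgery libraries and in 7 of 8 controls. S100a8 reached 48.97 CPM in 1 surgery library (replicate 5) and was at 0 in 5 of the 7. The monocyte markers summed to 19.7 to 42.7 CPM after surgery and 15.1 to 41.5 CPM in controls. The border-associated macrophage markers summed to 186 to 587 CPM after surgery and 91.4 to 217 CPM in controls, and nearly all of this was Stab1, at a mean of 267 CPM after surgery and 140 CPM in controls (log2 fold change 0.91; edgeR BH 0.0866). Lyve1 was at 0 in every control and in 4 of 7 surgery libraries, and Mrc1 averaged 1.27 and 1.16 CPM. Among 7 B cell markers Ighm was lower after surgery (-1.35 on the log2 scale; edgeR BH 0.0334), and the list summed to 48.0 to 86.3 CPM after surgery and 94.3 to 405 CPM in controls. The 7 astrocyte markers summed to 49.02 to 84.5 CPM after surgery and 30.8 to 69.2 CPM in controls in old hemisphere at 6 h. Their median sum at 6 h was 77.6 CPM after surgery and 48.01 CPM in controls in old hemisphere, 77.6 and 47.9 CPM in old hippocampus, 76.1 and 40.4 CPM in young hemisphere, and 79.5 and 51.9 CPM in young hippocampus. Most of this was Slc1a3, at a mean of 52.5 CPM after surgery and 30.1 CPM in controls in old hemisphere (log2 fold change 0.78; edgeR BH 0.301), while Gfap was at 0 in 4 of 7 surgery libraries and 4 of 8 controls. Mean CPM after surgery and in controls there was 9.21 and 11.2 for Gja1, 0.504 and 1.44 for Gfap, and 0.463 and 0.705 for Aqp4. It was 6.39 and 3.63 for Slc1a2, 1.56 and 1.23 for Aldh1l1, and 0.571 and 0.197 for Sox9. The microglia marker P2ry12 averaged 298 CPM after surgery and 402 CPM in controls there (-0.44 on the log2 scale; edgeR BH 0.134). Fcrls, for which the cells were sorted, averaged 296 CPM after surgery and 272 CPM in controls, with medians of 268 and 278 CPM. The 10 microglia markers summed to 3983 to 6577 CPM after surgery and 3860 to 7054 CPM in controls. The part of these cells in the Ncf1 result was not tested.

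Among the old animals whose sort numbers lay within the range of the young ones, 3 per arm, the fold change (log2) was 0.60 (edgeR BH 0.661), and without old surgery replicate 3 or 4 or old control replicate 4 it was 0.71, 0.68 and 0.70 with BH values of 0.0553, 0.0612 and 0.0514. The gene overlaps Gtf2ird2 on the opposite strand over 4303 bases, and reads from these bases cannot be told apart here. Gtf2ird2 had a median of 17.4 CPM and a fold change (log2) of 0.74 in the same comparison (edgeR BH 0.488).

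Ncf4 (chr15:78244801-78262580) encodes p40phox, which binds a membrane phosphoinositide. Its surgery estimate at 6 h was above 0 in old hemisphere and below 0 in the other 3 settings. In old hemisphere the lowest, median and highest values were 7.29, 17.8 and 31.1 CPM after surgery and 3.65, 13.9 and 26.7 CPM in controls, a fold change (log2) of 0.48. In old hippocampus they were 3.402, 10.05 and 21.2 CPM after surgery and 10.5, 19.0 and 38.8 CPM in controls, a fold change (log2) of -0.87. In young hemisphere Ncf4 measured 6.72, 9.34, 8.91 and 4.50 CPM after surgery and 13.8, 14.6, 24.8 and 6.81 CPM in controls, a fold change (log2) of -1.03. In young hippocampus the fold change (log2) was -0.59 ± 0.59 (SE). Surgery and control overlapped in all 4 settings, and edgeR called none of these differences. The surgery effect in old hippocampus minus that in old hemisphere at 6 h was -1.53 ± 0.69 (log2, SE; edgeR BH 0.706). Without the 6 libraries that held few values of 1 and their animals, it was -1.10 (edgeR BH 0.816).

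Rac2 (chr15:78559167-78572783) encodes the GTPase of the oxidase found mainly in blood-forming cells. It ranged from 13.04 to 127 CPM over libraries, and old control hemisphere at 6 h alone held values from 21.0 to 117 CPM. Its 8 surgery estimates ran from -0.46 to 0.78 (log2), and the lowest edgeR BH value over all 28 comparisons was 0.685. Among controls at 48 h the hemisphere values were 24.1, 32.3 and 78.1 CPM in old animals (lowest, median, highest) and 25.04, 86.98, 123 and 29.2 CPM in young animals. The old over young fold change (log2) there was -0.79 ± 0.38 (SE; edgeR BH 0.742), a difference within the wide spread of the young libraries.

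Cyba (chr8:122424776-122432930) is the gene of the membrane subunit p22phox, which also serves other NADPH oxidases. Its group means lay between 75.3 and 92.3 CPM. Surgery estimates ran from -0.27 to 0.21 (log2), and the lowest edgeR BH value over the 28 comparisons was 0.586. It overlaps Gm20388, a gene model on the opposite strand with a median of 5.85 CPM.

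Cybb (chrX:9435252-9487771) encodes the catalytic subunit gp91phox. Its group means ran from 1.38 CPM in young surgery hemisphere at 6 h to 10.3 CPM in old surgery hemisphere at 48 h. In hemisphere at 48 h after surgery, the old libraries had 1.54, 10.03 and 18.3 CPM (lowest, median, highest) and the young libraries 1.32, 1.45, 5.26 and 0.797 CPM. In all, 7 of 9 old libraries lay above every young one, and the old over young fold change (log2) was 2.30 ± 0.64 (SE; edgeR BH 0.208). In control hemisphere at 6 h the old libraries had 2.15, 6.07 and 13.4 CPM and the young libraries 1.53, 4.23, 0.942 and 0.928 CPM (1.93 ± 0.58, log2 and SE; edgeR BH 0.334). In old hemisphere at 6 h, the lowest, median and highest values were 0.729, 3.15 and 5.34 CPM after surgery and 2.15, 6.07 and 13.4 CPM in controls (-1.19 ± 0.45; edgeR BH 0.400). This last comparison and the one before it share the old control libraries. None of these differences was called, and a library with 1 CPM of Cybb held only a few counts.

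**Figure D3:**
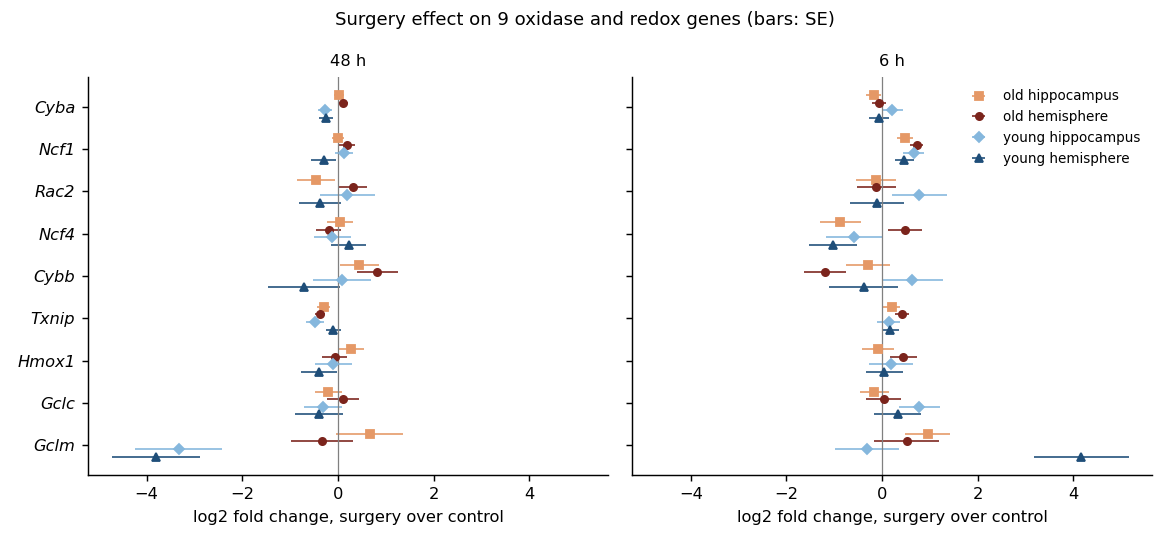
Log2 fold change of surgery over control for the 9 genes at 48 h (left) and 6 h (right), with SE bars, for each age and region. Ncf1 lies above 0 in all 4 settings at 6 h (0.47 to 0.72), and the widest bars belong to Gclm in young animals.

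Txnip (chr3:96557957-96561883) is, with Ncf1 and Cyba, among the members with the most counts. In old hemisphere at 48 h its lowest, median and highest values were 72.9, 91.6 and 95.6 CPM after surgery and 92.0, 112 and 133 CPM in controls. At 6 h they were 77.7, 91.7 and 114 CPM after surgery and 48.2, 69.7 and 94.98 CPM in controls. The groups overlapped at both times: 5 of 9 surgery libraries lay below every control at 48 h, and 3 of 7 lay above every control at 6 h. The surgery estimates (log2) were -0.38 ± 0.11 at 48 h (SE; edgeR BH 0.727) and 0.42 ± 0.14 at 6 h (edgeR BH 0.291), neither of them called. The surgery effect at 48 h minus that at 6 h was called, at -0.79 ± 0.17 (log2, SE; edgeR BH 0.0316), in a comparison where 0.17% of 14144 genes were called and 1 of the 9 members. Without the 6 libraries that held few values of 1, it was -0.78 (edgeR BH 0.0399).

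The group means behind this difference were further apart in one arm than in the other. Old surgery hemisphere averaged 86.3 ± 8.89 CPM at 48 h and 93.3 ± 11.9 CPM at 6 h (SD, n = 9 and 7). Old control hemisphere averaged 111 ± 13.3 CPM at 48 h and 69.2 ± 14.2 CPM at 6 h (SD, n = 8 each), so the control means were further apart than the surgery means. Animals of 48 h and of 6 h carried separate ranges of sort numbers, and time cannot be told apart from that order. The same difference between times was -0.48 ± 0.22 in old hippocampus, -0.26 in young hemisphere and -0.65 ± 0.31 in young hippocampus (log2, SE), none of them called.

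Without surgery, Txnip was also compared between ages. In control hemisphere at 6 h it had 48.2, 69.7 and 94.98 CPM in old animals (lowest, median, highest) and 94.6, 111, 110 and 126 CPM in young animals. In control hippocampus at 6 h it had 41.3, 88.05 and 101 CPM in old animals and 150, 129, 133 and 132 CPM in young animals; there the old libraries lay below every young one, as for 0.277% of the genes tested. The old over young estimates (log2) were -0.67 ± 0.16 in hemisphere (SE; edgeR BH 0.156) and -0.76 ± 0.21 in hippocampus (edgeR BH 0.241). After surgery at 6 h they were -0.43 and -0.70. At 48 h they were -0.29 among surgery and -0.00 among control hemispheres, and -0.24 among surgery and -0.42 among control hippocampi. None of the 8 was called. Without the 6 libraries that held few values of 1, the old over young control estimates at 6 h were -0.63 in hemisphere (edgeR BH 0.167) and -0.72 in hippocampus (edgeR BH 0.717). The hemisphere comparison among controls at 6 h uses the same old control libraries as the surgery comparison above.

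**Figure D4:**
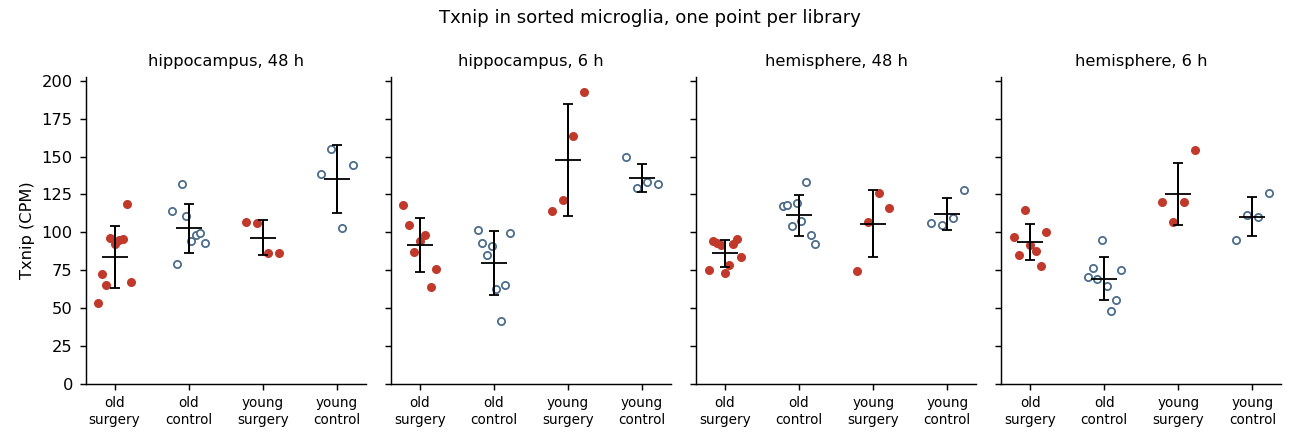
Txnip in CPM, one point per library, in the 4 settings of region and time; filled red points are surgery, open points control, and bars show mean ± SD. Old control hemisphere averages 111 CPM at 48 h and 69.2 CPM at 6 h, and old surgery hemisphere 86.3 CPM at 48 h and 93.3 CPM at 6 h.

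Txnip lies over its antisense model Gm15441, which covers all of its 3927 bases on the other strand and had a median of 3.91 CPM. Reads from these bases cannot be told apart here. In old hemisphere the estimates of Gm15441 were of the other sign, with -1.12 for surgery at 6 h and 1.43 for the difference between times (log2; edgeR BH 0.468 and 0.388). Without the low-count filter, the difference between times for Txnip was -0.79 with an edgeR BH value of 0.221. Of the 32 fits that left out 1 old library, 2 lost the call: -0.74 (edgeR BH 0.0582) without surgery replicate 3 of 6 h, and -0.77 (edgeR BH 0.0503) without surgery replicate 5 of 48 h.

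Gclm (chr3:122245557-122270732) had a median of 3.69 CPM over the 96 libraries, but 9 libraries exceeded 5 times that value. They held 21.2 to 160 CPM and 51 to 463 counts, and 5 of the 9 were from young animals. In the same animals the other brain region measured 2.47 to 4.90 CPM, so in no animal were both regions high. The other 87 libraries ran from 0.929 to 18.2 CPM. Gclm overlaps Gm17494, a gene model on the opposite strand with a median of 137 CPM, and the pseudogene Gm6061 on its own strand, which was counted in 1 library. Reads from bases that Gclm shares with the far more abundant Gm17494 cannot be told apart here. The overlap was taken from gene spans, introns included. Gm17494 had an estimate of -0.03 for the difference in surgery effect between times in young hemisphere (log2). For old over young control hippocampus at 48 h it had -0.20 (log2), and edgeR called neither. The part of Gm17494 in the Gclm values was not tested.

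In young hemisphere at 48 h Gclm measured 4.30, 1.45, 2.63 and 3.19 CPM after surgery and 2.87, 35.7, 130 and 2.62 CPM in controls. At 6 h it measured 3.78, 160, 56.6 and 3.53 CPM after surgery and 2.30, 3.76, 3.77 and 2.48 CPM in controls. The high values thus stood in the control group at 48 h and in the surgery group at 6 h, in 2 of 4 libraries each. The surgery effect at 48 h minus that at 6 h was -7.99 ± 1.43 (log2, SE; edgeR BH 0.0176), and Gclm was the 1 gene called there (0.00707% of 14144). The surgery estimates were -3.81 ± 0.92 at 48 h and 4.17 ± 0.99 at 6 h (log2, SE) and were not called by edgeR. The difference between times lost its call in 10 of the 16 fits that left out 1 young library, where it ran from -8.38 to -6.36 (edgeR BH 0.00388 to 0.221).

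In control hippocampus at 48 h Gclm measured 1.45, 2.76 and 5.07 CPM in old animals (lowest, median, highest) and 7.63, 4.17, 4.16 and 130 CPM in young animals. The groups overlapped, and the old over young fold change (log2) was -3.65 ± 0.74 (SE; edgeR BH 0.0410), where 0.0834% of 11985 genes were called. Without young control replicate 4, the library at 130 CPM, it was -0.92 (edgeR BH 0.855). Of the 25 fits that left out 1 library, 19 lost the call (edgeR BH 0.00491 to 0.855). The same comparison in hemisphere gave -3.11 ± 0.68 (edgeR BH 0.0822).

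**Figure D5:**
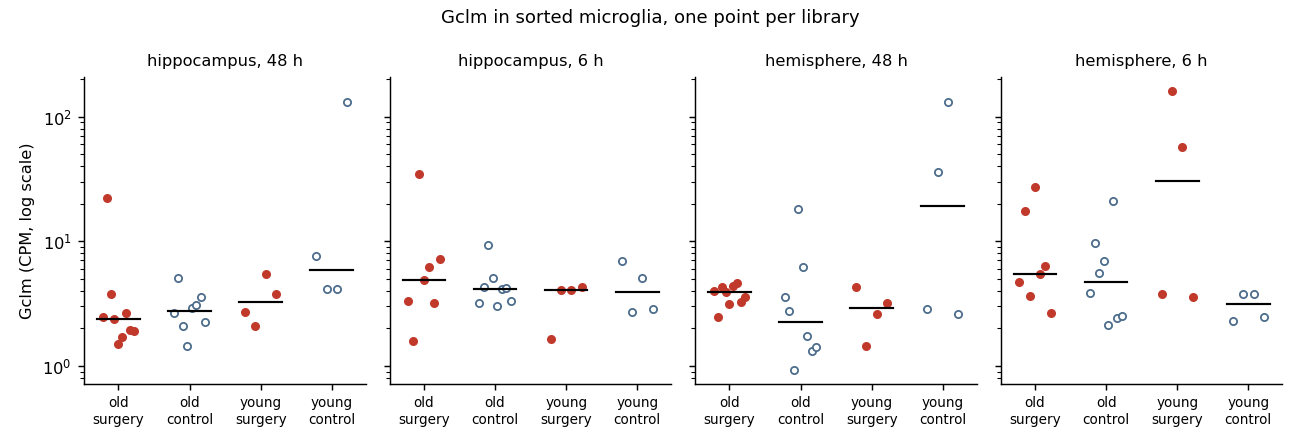
Gclm in CPM on a log axis, one point per library, in the 4 settings of region and time; filled red points are surgery, open points control, and bars show medians. Most libraries lie near 3.69 CPM, and single libraries reach 21.2 to 160 CPM in groups of either treatment.

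Gclc (chr9:77754535-77794485), the catalytic partner of Gclm, had group means of 3.18 to 5.18 CPM, and its highest library held 10.5 CPM. Its surgery estimates ran from -0.41 to 0.78 (log2), and the lowest edgeR BH value over the 28 comparisons was 0.570. Hmox1 (chr8:75093621-75100589), which breaks down heme to biliverdin, iron and carbon monoxide, had group means of 5.17 to 8.15 CPM. Its surgery estimates ran from -0.40 to 0.44 (log2), and its lowest edgeR BH value was 0.512. Hmox1 in old hemisphere at 6 h had 3.67, 6.35 and 10.9 CPM after surgery and 3.65, 4.62 and 7.83 CPM in controls (lowest, median, highest), with 3 of 7 surgery libraries above every control.

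None of the 9 genes was called between brain regions by edgeR. Over the 4 groups, hippocampus over hemisphere fold changes (log2) ran from -0.79 (Gclm) to 0.19 (Gclc) at 6 h and from -0.32 (Cybb) to 0.03 (Ncf1) at 48 h, within animals. Of all genes, 0% of 14906 were called at 6 h and 0.0371% of 13473 at 48 h.

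The pathway around the members was followed through 6 lists with 90 genes in all. Of 15 other NADPH oxidase genes, 9 to 10 passed the filter, and edgeR called none in any of the 28 comparisons (15 of 275 tests had an unadjusted p below 0.05). In old hemisphere at 6 h, where Ncf1 was called, Rac1 had a surgery estimate of 0.21, Cybc1 (the chaperone of the membrane subunits) 0.25 and Hvcn1 (the proton channel that balances the charge) -0.37 (log2). The list's median was -0.17, beside -0.02 for all genes. None of the glutathione genes (9 to 12 of 19 tested), the thioredoxin and peroxiredoxin genes (15 to 17 of 18), the NRF2 axis (13 of 16) and the superoxide and peroxide removal genes (7 of 9) was called in any comparison by edgeR. Unadjusted p values below 0.05 numbered 18 of 281, 25 of 440, 16 of 364 and 8 of 196 tests in that order. Their medians for surgery in old hemisphere at 6 h were -0.00, -0.05, -0.11 and 0.02 (log2). Mlxip, which encodes the glucose-sensing regulator MondoA of Txnip, had an estimate of 0.77 there, and Nfe2l2, which encodes NRF2, one of -0.00. Neither gene was called by edgeR, and a link between Mlxip and the Txnip values was not tested.

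Cyb561a3, a ferrireductase of lysosomes in the heme and iron list (11 of 13 tested; 29 of 308 tests with an unadjusted p below 0.05), was the exception. In old hemisphere at 6 h it fell to 12.4, 14.03 and 21.0 CPM after surgery, against 16.6, 31.4 and 46.5 CPM in controls (lowest, median, highest), a log2 fold change of -1.12 ± 0.24 (SE; edgeR BH 0.0305). In old hippocampus at 6 h it fell to 7.75, 13.7 and 25.4 CPM, against 23.4, 32.7 and 53.03 CPM in controls, a log2 fold change of -1.19 ± 0.23 (SE; edgeR BH 0.0358; 0.0876% of 13703 genes called). A single surgery library in each region overlapped the controls. Its surgery effect in old hemisphere at 48 h minus that at 6 h was 1.35 ± 0.31 (edgeR BH 0.0385). The large ferritin genes of the same list had estimates near 0 in old hemisphere at 6 h, -0.07 for Fth1 and -0.05 for Ftl1 (log2).

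For each member the genes whose group means followed it most closely were taken from 9350 genes, by Pearson's r of the mean log2 CPM over the 16 groups. For Ncf1 they were Abhd15 (r = 0.96), Slco4a1 (0.91) and Tsc22d3 (0.88). For Txnip they were Bcl9l (0.81), Ammecr1l (0.80) and Crtc2 (0.79), and for Gclm Cop1 (0.79), Tead1 (0.75) and Fam104a (0.74). For Cybb they were Haao (0.91), Cd274 (0.83) and Eif3h (0.83), for Cyba Psmb6 (0.83), Aldoa (0.83) and Ndufa3 (0.80), for Ncf4 Zfp607b (0.86), Fam196b (0.84) and Nans (0.84), and for Rac2 Cdc123 (0.84), Prkaa1 (0.82) and Tspan7 (0.81). For Gclc they were Cpsf1 (0.84), Mpv17l2 (0.82) and Bccip (0.80), and for Hmox1 Mapk7 (0.78), Prpf39 (0.78) and Gatm (0.75). These are the highest of many correlations over 16 points, and the points share libraries, depth and scaling with the member.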

How the data were processed

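Microglia of 96 libraries were measured by RNA sequencing. Each deposited table holds, per the file headers, a column of estimated counts for every library over Ensembl gene models, all whole numbers. The build mm10 and the tools R 4.2.1 and DESeq2 1.36.0 come from the submitters' processing notes. Aligner, counter, annotation release and strand setting: not given in the sources used here. In 6 libraries, values of 1 made up under 30% of values 1 to 3, so their unit may differ from read counts. They were used as deposited, and the design, written for counts, was kept. Gene names, exon lengths and coordinates (1-based) came from GENCODE M21 on the same build.

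From these, edgeR 4.0.16 (R 4.3.3) was run with TMM scaling, filterByExpr at a minimum count of 10, robust dispersions and the quasi-likelihood F-test, with BH adjustment over all genes tested and a threshold of 0.05. The 4 groups of a region and time were fitted together, regions were compared with the animal as a block, taken from shared sort numbers, and times were compared over 8 groups. SE is the fold change divided by the root of F. CPM values use one TMM scale over all libraries. Replicates are animals. The fit was tried on simulated counts for surgery against control in old animals at 6 h, with a single fixed dispersion. The other comparisons were not simulated.

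The named genes are the 9 members, every called gene of the 6 pathway lists, and the 3 closest genes to each member; other pathway and marker genes were named after their values were seen. Members and lists were chosen with earlier results of these data known. Alternatives were DESeq2 1.42.0, limma voom (limma 3.58.1), RLE size factors, library sizes without the 15 largest gene models, no low-count filter, omission of the 6 libraries or of old animals outside the young sort numbers, omission of each library in turn (between times, each young library, and each old one in hemisphere only, a choice made after seeing the data; between regions, each young animal), and fits with or without a block. Precision is set by the counts behind each value and by 4 to 9 animals per group.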

Additional observations from a re-analysis of the deposited data

Results flagged for a closer look

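Of 144 sets of one gene in one group, 13 held a library whose gap to its nearest neighbour was large for the range of its group. For normally distributed values chance gives about 1 in 20 such sets. Whether these CPM values, some from few counts, follow that distribution was not checked. Most of the 13 sets belong to Gclm. Its highest libraries in their groups were young control hippocampus 48 h replicate 4 (130 CPM), old surgery hippocampus 6 h replicate 3 (34.6 CPM) and 48 h replicate 2 (22.1 CPM). The others were old control hemisphere 6 h replicate 6 (21.2 CPM) and 48 h replicate 4 (18.2 CPM), and old control hippocampus 6 h replicate 3 (9.25 CPM). Gclm stood low in young surgery hippocampus 6 h replicate 1 (1.64 CPM). Cybb stood high in old surgery hippocampus 48 h replicate 3 (12.9 CPM), young surgery hippocampus 6 h replicate 3 (7.71 CPM) and young surgery hemisphere 48 h replicate 3 (5.26 CPM). Single high libraries were also seen for Gclc in old control hemisphere 48 h replicate 3 (10.5 CPM), Ncf4 in young control hemisphere 48 h replicate 2 (36.0 CPM) and Rac2 in old control hemisphere 48 h replicate 7 (78.1 CPM).

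The surgery effect differed between times in 2 called tests, for Txnip in old hemisphere (-0.79 on the log2 scale, 48 h minus 6 h) and for Gclm in young hemisphere (-7.99 on the log2 scale).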

How the results depend on the processing

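Among the member tests with an unadjusted edgeR p below 0.05, no direction reversed under any alternative that gave an adjusted p. The directions of the other member tests were not compared. The number of called members moved as follows. DESeq2 called 1 member in comparisons where edgeR called 0: Cybb in old against young hemisphere after surgery at 48 h, Gclm in old against young control hemisphere at 48 h and in young hemisphere surgery at 6 h and at 48 h, and Txnip in old against young control hemisphere at 6 h. It gave Gclm no adjusted p in control hippocampus at 48 h, so the count there was 0. Without the low-count filter 0 were called for surgery in old hemisphere at 6 h (Ncf1 0.73, BH 0.0862), for old against young control hippocampus at 48 h and for both differences between times, and 1 (Ncf4) for the surgery effect in old hippocampus minus hemisphere at 6 h. Limma voom called 0 for Gclm in control hippocampus at 48 h and between times in young hemisphere. With old animals limited to the young sort numbers, 0 were called for surgery in old hemisphere at 6 h and for control hippocampus at 48 h. Leaving out each library in turn gave 0 to 1 called members for old against young controls in hemisphere and in hippocampus at 48 h, for the differences between times in young hemisphere (young libraries left out) and in old hemisphere (old libraries left out, added after seeing the data), and for surgery in old hemisphere at 6 h. Old libraries were not left out of the difference between times in old hippocampus. The causes of these moves were not tested.

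Over all genes, the 43 calls for surgery in old hemisphere at 6 h became 110 with DESeq2, 17 with a replicate block and 0 within the young sort numbers, and leave-one-out fits gave 24 to 51. The 24 calls between times in old hemisphere became 55 with DESeq2, 14 with voom, 5 without the filter and 6 to 29 with 1 old library left out, and the 10 calls for control hippocampus at 48 h became 22, with DESeq2, and 3 within the young sort numbers.

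Surgery and control animals of the same number are different animals, and their deviations did not go together (median correlations of -0.07 to 0.07). With the replicate number as a block Ncf1 in old hemisphere at 6 h was 0.77 (BH 0.0154), and no count of called members changed in that fit or in the region fit with no replicate block. Cybb, Gclc and Gclm rest on few counts, which limits what can be detected for them.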
